A study of Mus musculus with 4 samples.

Results

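The thick and thin filament paralogs of the sarcomere were followed here as 40 genes of the 23420 listed in each count file, chosen by gene symbol: 8 myosin heavy chains, 6 myosin light chains, 3 myosin light chain kinases, 8 troponins, 2 sarcomeric actins, 4 tropomyosins, 5 myosin binding proteins, 2 leiomodins and 2 tropomodulins. All 40 symbols were found. The series holds 4 libraries of polyadenylated RNA from hearts of C57BL/6J mice, an inbred laboratory strain, each labelled male and 12 weeks old. The labels name no treatment or genetic change and form 1 group, so genes are compared within a library and libraries with each other. The labels name whole heart as the tissue, while their protocol says that frozen ventricular apexes gave the RNA. Nothing states outright that the libraries came from separate animals, so spreads and p-values describe these libraries and may be in part technical.

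Muscle shortens when myosin heads on thick filaments pull on actin in thin filaments. A thick filament is built from heavy chain dimers that each carry essential and regulatory light chains, with myosin binding protein C arranged along it. A thin filament is a strand of actin covered by tropomyosin and by the troponin complex, in which troponin C binds calcium, troponin I blocks the actin site and troponin T ties the complex to tropomyosin. Most of these proteins are encoded by several genes, used in ventricle, atrium, fast or slow skeletal muscle, or the embryo, and the mixture of paralogs changes in development and in cardiac disease.

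Libraries 1 to 4 held between 10523709 and 15359296 reads assigned to genes, and levels are counts scaled to 1000000 of those reads (CPM). Libraries 2 and 3 went against their sex label: Xist, the RNA of the inactive X chromosome, stood at 136 and 172 CPM there, and at 0.347 and 1.24 CPM in libraries 1 and 4. The Y-linked genes split the same way. In libraries 1 to 4 Ddx3y had 341, 0, 1 and 437 counts and Kdm5d 169, 0, 1 and 195. Eif2s3y had 163, 0, 0 and 201 counts and Uty 43, 0, 0 and 59. Of the cardiomyocyte markers, 10 of 10 reached 1 CPM, with a sum between 56582 and 62967 CPM. Defining genes of skeletal muscle precursors were at or near 0: Myog, Myf5 and Pax7 had 0 counts in each library, and Myod1 had 0, 1, 0 and 0 counts. Of all 12 skeletal muscle markers, 3 did reach a mean of 1 CPM: Cacna1s (13.4 CPM), Casq1 (11.2 CPM) and Atp2a1 (1.35 CPM). Fibroblast markers summed to between 822 and 946 CPM, macrophage markers to between 140 and 152 CPM and conduction system markers to between 69.0 and 88.0 CPM. In bulk tissue, fewer cells of a type and less RNA per cell cannot be told apart.

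A total of 26 of the 40 genes reached a mean of 1 CPM, and 14 did not. The 40 genes together took 105233, 104208, 114121 and 104009 CPM in libraries 1 to 4, or 10.7 ± 0.485% of all gene counts (SD, n = 4). Myh6 alone made 46.7% of that sum, and the 10 most abundant members made 98.1%. Leaving Rn45s, the ribosomal RNA precursor, out of the total raised the mean sum of the 40 genes from 106893 to 122491 CPM. Above 1000 CPM stood 9 members, no more than 1 in any family: Myh6, Myl2, Myl3, Tnnt2, Tnni3, Tnnc1, Actc1, Tpm1 and Mybpc3. The 14 members under 1 CPM had between 0 and 19 counts in any library, 232 counts in all. A count of 0 allows up to about 3 counts by a one-sided Poisson limit of 95%, worth 0.195 to 0.285 CPM. The two-sided limits used elsewhere reach higher. Myh3, Tnnc2 and Mybpc1 did not pass 3 counts in any library.

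**Figure D1:**
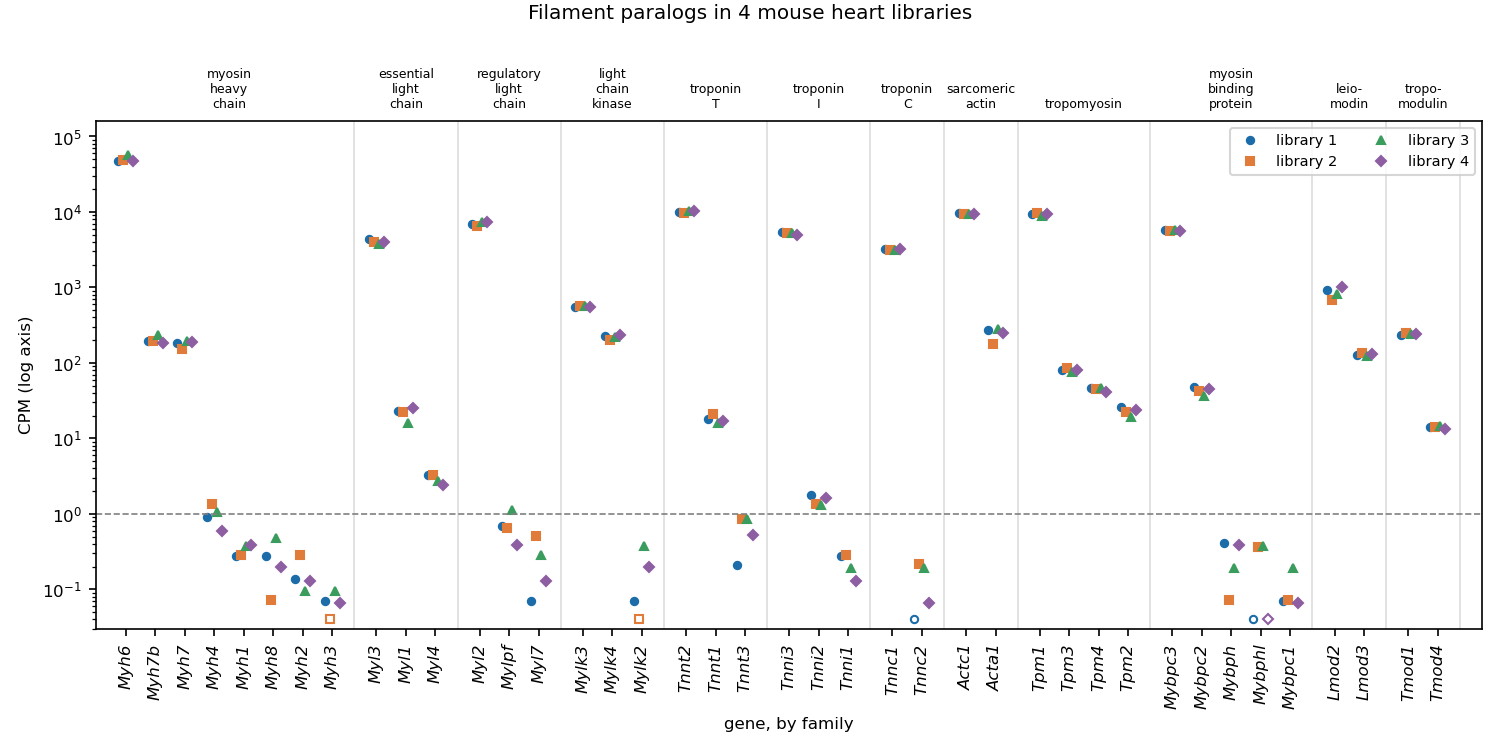
Level of each of the 40 genes in each of the 4 libraries, in CPM on a log axis, grouped by protein family and ordered by mean within it. Open symbols at the bottom edge stand for 0 counts and the dashed line marks 1 CPM; 9 genes lie above 1000 CPM and 14 have a mean under 1 CPM.

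Because paralogs resemble each other, part of their reads cannot be placed on 1 gene. The deposited files set aside reads with more than 1 alignment, 8.33 ± 0.147% of those listed (SD, n = 4). Windows of 50 bases, an assumed read length, were therefore compared between each member's longest coding transcript and all transcripts of other genes in GENCODE M21. Here and below, that term means the protein-coding transcript with the longest coding sequence, which need not be the longest transcript. At least 1 window was shared for 18 of the 40 members and none for 22. The 2 heart myosins were among the sharers: 22.6% of windows in Myh6 and 28.2% in Myh7. The coding sequences of Myh6 (bases 4246 to 4490) and Myh7 (bases 4240 to 4484), both on chromosome 14, hold an identical run of 245 bases, counted from the start codon. It is printed because a read that falls wholly within it matches both genes. Capitals mark the identical run, and lower case the 12 bases of Myh6 on each side.
Myh6: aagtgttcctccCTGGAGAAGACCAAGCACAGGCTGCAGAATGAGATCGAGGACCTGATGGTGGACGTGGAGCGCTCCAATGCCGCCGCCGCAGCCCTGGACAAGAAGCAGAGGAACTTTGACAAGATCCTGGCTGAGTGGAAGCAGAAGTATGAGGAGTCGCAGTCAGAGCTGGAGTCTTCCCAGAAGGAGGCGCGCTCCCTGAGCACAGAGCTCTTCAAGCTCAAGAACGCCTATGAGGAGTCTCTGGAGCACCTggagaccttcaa

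By contrast, cardiac actin Actc1 and skeletal actin Acta1, whose proteins are nearly the same, shared no run of coding sequence longer than 29 bases. No window of Actc1 was found in another gene, and 2.22% of the windows of Acta1 were. Tpm3, a tropomyosin of slow muscle and non-muscle cells, had 62.4% of its windows in the related sequence Tpm3-rs7. For Tnnc2 (55.0%), Mybph (44.96%) and Tmod1 (39.8%) most of the shared sequence was that of an overlapping neighbour on the opposite strand, Ube2c, Adora1 and Tstd2. The libraries kept no strand, so reads there cannot be assigned. How far shared sequence changed the counts was not tested, so the levels of Myh6, Myh7, the skeletal heavy chains and these 4 genes are uncertain to that extent. So are those of Myl1 (23.4% of windows shared) and Tpm4 (16.1%).

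**Figure D2:**
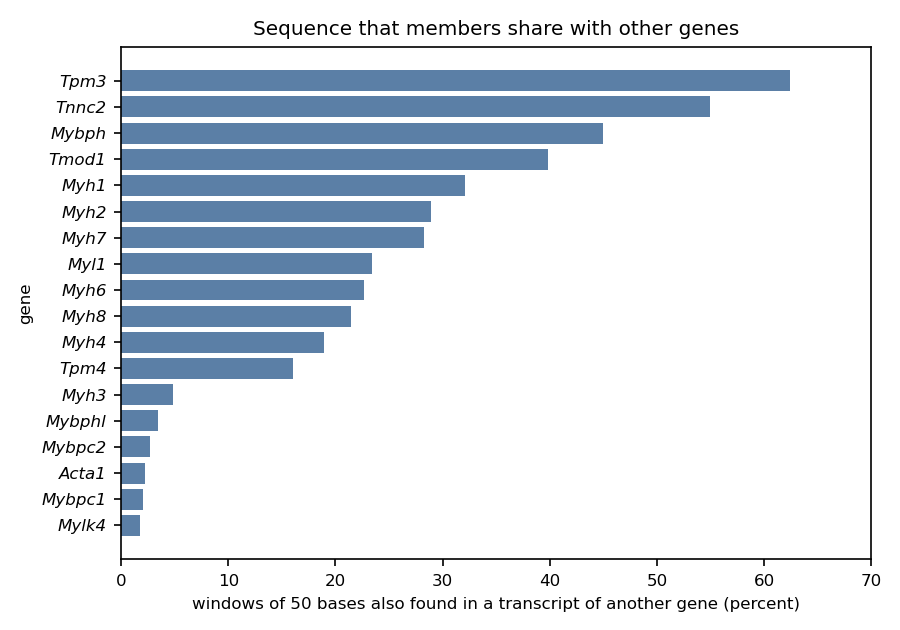
Percent of 50-base windows in each member's longest coding transcript that also occur, on either strand, in a GENCODE M21 transcript of another gene. The 22 members without a shared window are left out; Tpm3 is highest at 62.4%, and Myh7 (28.2%) and Myh6 (22.6%) share 1373 windows with each other.

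Among the heavy chains, the motors of the thick filament, the alpha chain Myh6 (chromosome 14, 54941921 to 54966927) dominated. It stood at 47535, 48453, 56973 and 46666 CPM in libraries 1 to 4, the second most abundant gene of the files. Library 3 was the high one, 1.22-fold above library 4. The beta chain Myh7 (chromosome 14, 54970684 to 54994626), the main ventricular form before birth in mice, had 185, 153, 193 and 188 CPM. Library 2 was the low one there, and the other libraries lay close together. Myh7b (chromosome 2, 155611212 to 155634307), an ancient relative whose heart transcript is known to be spliced largely into a form that makes no full protein, had 194, 197, 237 and 186 CPM, again with library 3 on top.

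Levels between genes are given per kilobase of exon, with all annotated exons of a gene merged. On that scale Myh6 held 99.3 ± 0.0287% of the heavy chain family, Myh7b 0.410 ± 0.00785% and Myh7 0.281 ± 0.0325% (SD, n = 4 each). Myh6 exceeded Myh7 by 328, 407, 378 and 317-fold in libraries 1 to 4, a mean log2 ratio of 8.47 ± 0.17. With lengths of the longest annotated transcript this mean came to 283-fold. The Myh7 share of heavy chain counts was 0.387, 0.313, 0.336 and 0.401%, with exact Clopper-Pearson limits of 95% from 0.299 to 0.326% in library 2 and from 0.386 to 0.415% in library 4. Libraries 2 and 4 thus differed by more than counting error, which is all that such limits cover. Exons of Myh7 also overlap those of 3 antisense genes over 13.3% of their length.

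Myh7b followed Myh6 closely. The ratio of Myh6 to Myh7b per kilobase was 241, 243, 237 and 248 in libraries 1 to 4, although the coefficient of variation of each gene alone was 9.55% for Myh6 and 11.3% for Myh7b. The count ratio varied by 1.90%, next to a counting error of 1.92% for Myh7b alone. Among the 12359 other tested genes, 21 held a ratio to Myh6 that was as steady over the 4 libraries (0.170%), Myh7b included. This pair was singled out after its values were seen. The 5 remaining heavy chains are forms of fast skeletal muscle and of the embryo, encoded side by side on chromosome 11. Myh4 had 13, 19, 11 and 9 counts, Myh1 between 4 and 6, Myh8 between 1 and 5, Myh2 between 1 and 4, and Myh3 0 or 1 in each library.

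Introns of the heart myosin genes carry microRNAs, which belong to the way these genes influence each other: in mice, miR-208a from Myh6 is known to be needed for beta chain expression under stress. The mature strands are shown because those of all 3 hosts start alike. Capitals mark the seed, bases 2 to 8, which is UAAGACG in both miR-208 forms and UAAGACU in miR-499-5p. Sequences are from RefSeq on GRCm38.p6. The strand of miR-208a lies at chr14:54949072-54949093 and that of miR-208b at chr14:54975710-54975731, both on the minus strand, and that of miR-499 at chr2:155622893-155622913 on the plus strand.
miR-208a-3p, in Myh6: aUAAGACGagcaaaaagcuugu
miR-208b-3p, in Myh7: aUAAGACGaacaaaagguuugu
miR-499-5p, in Myh7b: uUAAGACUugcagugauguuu
Reads of polyadenylated RNA do not measure mature microRNAs. The hairpin entries had 12, 15, 9 and 9 counts for Mir208a, 30, 37, 22 and 33 counts for Mir208b and 0 counts in each library for Mir499. The order of the hairpins was therefore not that of their hosts, since Myh6 stood far above Myh7.

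The light chains steady the lever arm of the myosin head. The regulatory light chain of ventricle, Myl2, stood at 6939, 6554, 7459 and 7254 CPM in libraries 1 to 4, with library 2 lowest and library 3 highest. Its atrial counterpart Myl7 had 1, 7, 3 and 2 counts, and the fast skeletal form Mylpf 10, 9, 12 and 6 counts. Myl2 held 99.97 ± 0.0137% of this family per kilobase (SD, n = 4), and its ratio to Myl7 rests on too few counts to be sized. The ventricular essential light chain Myl3 had 4326, 3941, 3813 and 3957 CPM. Library 1 stood above the other libraries, which lay between 3813 and 3957 CPM.

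Of the remaining essential light chains, the fast skeletal form Myl1 was the more abundant. It had 23.1, 22.2, 16.2 and 25.4 CPM, and library 3 was the low one, with exact Poisson limits of 13.8 to 18.8 CPM. The atrial and embryonic form Myl4 had 3.26, 3.30, 2.76 and 2.41 CPM, values that did not differ beyond counting error between any libraries. Myl3 exceeded Myl1 by 189-fold and Myl4 by 3084-fold per kilobase. The fold over Myl4 depends on length, and was 1368 with the longest coding transcripts. In Myl1, 23.4% of windows were shared with the pseudogene Mylf-ps.

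Phosphorylation of Myl2 sets the readiness of myosin heads, and in heart the enzyme known to do it is the cardiac light chain kinase, Mylk3. It had 544, 566, 573 and 546 CPM, a coefficient of variation of 2.64%. Mylk4, a related kinase, had 224, 198, 222 and 233 CPM, with library 2 lowest. The skeletal muscle kinase Mylk2 had 1, 0, 4 and 3 counts. Per kilobase Mylk3 made up 82.0 ± 1.28% of the 3 kinases (SD, n = 4) and exceeded Mylk4 by 4.4, 5.1, 4.6 and 4.2-fold. Without length the mean was 2.54-fold.

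Troponin transcripts were almost wholly of the adult heart forms and among the steadiest of the members. Tnnt2 (chromosome 1, 135836354 to 135852260), cardiac troponin T, had 10120, 9833, 10348 and 10329 CPM. Tnni3, cardiac troponin I, had 5422, 5227, 5317 and 5002 CPM. Tnnc1, the calcium sensor shared by heart and slow skeletal muscle, had 3232, 3179, 3148 and 3242 CPM. The highest library stood 1.05-fold above the lowest for Tnnt2, 1.08-fold for Tnni3 and 1.03-fold for Tnnc1.

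The skeletal troponins ranged from low to barely counted. Slow troponin T, Tnnt1, had 18.0, 21.3, 16.0 and 16.9 CPM, highest in library 2. Fast troponin I, Tnni2, had 1.80, 1.37, 1.33 and 1.63 CPM, with counting limits that overlapped between all libraries. Fast troponin T, Tnnt3, had 3, 12, 9 and 8 counts, and Tnnc2, the fast troponin C, had 0, 3, 2 and 1 counts. Slow troponin I, Tnni1, which is the form of the fetal heart, had 4, 4, 2 and 2 counts. Per kilobase Tnnt2 held 99.3 ± 0.0999% of troponin T, Tnni3 99.96 ± 0.00580% of troponin I and Tnnc1 99.995 ± 0.00422% of troponin C (SD, n = 4 each). Tnnt2 exceeded Tnnt1 by 161-fold per kilobase of merged exons, and by 499-fold with the longest coding transcripts, 1200 and 1059 bases long.

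Both sarcomeric actins were expressed. Cardiac actin Actc1 (chromosome 2, 114047282 to 114053548) had 9560, 9257, 9497 and 9533 CPM, a coefficient of variation of 1.47%. Skeletal actin Acta1 (chromosome 8, 123891769 to 123894751), a form that rises again in the stressed mouse heart, had 271, 178, 283 and 249.9 CPM. Library 2 stood apart at the low end for Acta1, and the others lay between 249.9 and 283 CPM. The Acta1 share of actin counts was 2.76, 1.89, 2.89 and 2.55%, with Clopper-Pearson limits of 1.82 to 1.96% in library 2 and 2.48 to 2.64% in library 4. Per kilobase Actc1 exceeded Acta1 by 33.4, 49.3, 31.8 and 36.2-fold.

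The actin promoters are printed because 2 genes that differ so much in level carry the same kind of element near the start. Each line gives the 120 bases before the annotated start site, from RefSeq on GRCm38.p6, read along the gene. Actc1 lies at chr2:114052876-114052995 and Acta1 at chr8:123894776-123894895, both on the minus strand. The Actc1 stretch lies inside the gene span given above, so the RefSeq start used is not the outermost one annotated. The Acta1 stretch does not adjoin its gene span, which ends at 123894751, so its RefSeq start lies upstream of the GENCODE one. Distances to the start hold for the RefSeq starts only and would change with other starts. Capitals mark matches to the CArG box, the motif bound by serum response factor, and in Acta1 also to the TATA box (TATAAA) and to MCAT (CATTCC), the element bound by TEAD factors.
Actc1: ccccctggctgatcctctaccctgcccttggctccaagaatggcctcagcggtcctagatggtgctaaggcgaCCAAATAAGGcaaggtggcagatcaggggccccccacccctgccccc
Acta1: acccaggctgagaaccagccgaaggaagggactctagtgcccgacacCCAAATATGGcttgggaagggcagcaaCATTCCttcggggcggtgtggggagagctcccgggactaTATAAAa
The CArG box began 47 bases before the RefSeq start in Actc1 and 73 bases before that in Acta1. Actc1 also held TATAAA, at 33 bases after the start and so outside the printed stretch. Over windows from 250 bases before to 50 after the start, searched on both strands, 1.63% of 32851 promoters held a CArG box, 13.6% TATAAA and 14.7% CATTCC. The table held 42 promoter entries for 36 of the 40 members, without Lmod3, Mylk2, Tnni2 and Tnnt3. CATTCC was found in 11 of 29 entries of members at 1 CPM or more and in 4 of 13 entries of members below. TATAAA was found in 6 of the 29 and 6 of the 13, and a CArG box in 3 of the 29 and 2 of the 13. A match is a description of the letters and shows no binding.

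Tropomyosin lies along actin and covers the myosin sites at rest. Tpm1, the striated muscle alpha form in heart, had 9426, 9590, 8795 and 9392 CPM, with library 3 lowest. Tpm2, the beta form abundant before birth and in skeletal muscle, had 25.9, 22.2, 19.4 and 23.6 CPM. Tpm3 had 79.4, 86.6, 76.1 and 81.6 CPM and Tpm4, chiefly a form of non-muscle cells, 46.2, 44.8, 46.2 and 41.1 CPM. Tpm1 made up 97.2 ± 0.0830% of the family per kilobase (SD, n = 4), and 98.7% with the longest coding transcripts. The order of Tpm3 and Tpm4 was not settled: Tpm3 stood at 0.66 times Tpm4 per kilobase of merged exons, but at 1.73 times with the longest coding transcripts. Endothelial markers summed to between 1104 and 1119 CPM and smooth muscle markers to between 617 and 669 CPM in the same libraries, and their part in the levels of Tpm2, Tpm3 and Tpm4 was not tested.

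Myosin binding protein C brakes and positions the myosin heads. The cardiac form Mybpc3 (chromosome 2, 91118144 to 91136516) had 5701, 5546, 5838 and 5608 CPM. The fast skeletal form Mybpc2 had 48.4, 41.9, 36.6 and 45.1 CPM, lowest in library 3. Mybpc3 exceeded Mybpc2 by 102, 115, 138 and 108-fold per kilobase, and held 99.1 ± 0.101% of the family (SD, n = 4). The slow form Mybpc1 had 1, 1, 2 and 1 counts. The shorter relatives were as low, with 6, 1, 2 and 6 counts for Mybph and 0, 5, 4 and 0 counts for Mybphl, which in mouse heart is known from atria and the conduction system. Of the atrial marker genes, Sln had 1, 3, 0 and 2 counts and Bmp10 1, 0, 0 and 0, whereas Nppa (140 ± 8.15 CPM), Kcnj3 (38.6 ± 2.66 CPM) and Gja5 (7.36 ± 1.07 CPM) were well above 1 CPM (SD, n = 4).

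Leiomodins lengthen the thin filament at its pointed end, and tropomodulins cap that end. Lmod2, the main cardiac leiomodin, had 929, 688, 825 and 999 CPM, with library 2 lowest and library 4 highest. Lmod3, better known from skeletal muscle, was steadier at 127, 135, 124 and 131 CPM. The Lmod3 share of leiomodin counts was 12.0, 16.5, 13.0 and 11.6%. Its Clopper-Pearson limits in library 2, 15.8 to 17.1%, lay above those of the other libraries. The cap Tmod1 had 233, 250.2, 239.6 and 238 CPM and the skeletal form Tmod4 14.4, 14.4, 14.6 and 13.2 CPM. Tmod1 exceeded Tmod4 by 7.05, 7.56, 7.10 and 7.82-fold per kilobase. Lmod2 thus stood above Tmod1 by a wide margin, Tmod1 being 0.14 times Lmod2 per kilobase, or 0.18 times with the longest coding transcripts.

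**Figure D3:**
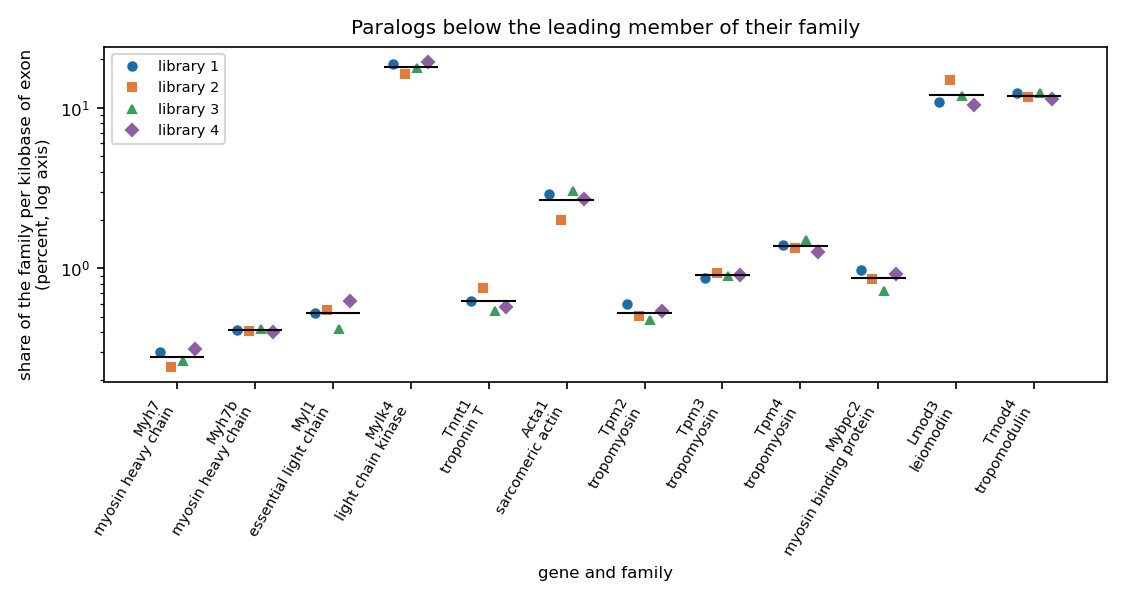
Share of its family that each non-leading paralog held, in percent per kilobase of merged exons on a log axis, for the 12 paralogs with a mean share over 0.1%. Points are the 4 libraries and black lines their mean; Mylk4, Lmod3 and Tmod4 each hold over 10% of their families, Acta1 2.66% and the heavy chains Myh7 and Myh7b under 0.5%.

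Per kilobase of merged exons, the first-named gene was the more abundant in each of the 4 libraries in 22 of 24 paralog pairs. The exceptions were Tpm3 with Tpm4 and Mybphl with Mybph. Most pairs name the leading member of the family first, and the pairs were chosen with earlier results of these data known. The number of pairs in that order is therefore largely set by how they were written. The order of Myh7b and Myh7 depended on the length used: Myh7b stood at 1.36, 1.67, 1.60 and 1.28 times Myh7 per kilobase of merged exons, but at 0.99 times in library 4 by raw counts. With the longest coding transcripts the value in library 4 was 0.997 times. The log2 ratios were tested against 0 by an exact permutation of their signs, two-sided, which over 4 libraries cannot give a p below 12.5%. That smallest value was reached by 34 of the 35 pairs (adjusted exact p = 0.129, Benjamini-Hochberg over the 35). None could therefore pass 0.05.

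Transcripts of proteins that sit together in a filament were compared in 11 partner pairs. Per kilobase of merged exons Myh6 led with 7420 ± 709 CPM, ahead of Actc1 (5848 ± 85.8), Myl2 (3616 ± 202), Tnnc1 (3074 ± 42.9), Tnni3 (2541 ± 86.6), Myl3 (1962 ± 108), Tpm1 (1434 ± 53.7), Mybpc3 (1363 ± 30.6) and Tnnt2 (1310 ± 30.9) CPM per kilobase (SD, n = 4). On that scale the means of Tpm1 and Mybpc3, and likewise of Mybpc3 and Tnnt2, differed by less than the sum of their SDs. Such SDs ignore that the genes were measured in the same libraries, so they show no tie. They also do not cover the choice of length. Actc1 stood at 0.84, 0.79, 0.69 and 0.85 times Myh6, and that order held under both other lengths. Myh6 exceeded Mybpc3 by 5.43-fold and Actc1 exceeded Tmod1 by 96.0-fold. With the longest coding transcripts these means lay further apart: Tnnt2 stood at 8465, Tpm1 at 5099 and Mybpc3 at 1363 CPM per kilobase. Myl2 then led these genes with 9673 CPM per kilobase, ahead of Tnnt2 and of Myh6 with 8164.

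The order of the 3 troponins was not settled by these counts. Per kilobase of merged exons Tnnt2 stood at 0.52 times Tnni3, and Tnnc1 at 1.21 times Tnni3. With the longest coding transcripts Tnnt2 stood at 1.47 times and Tnnc1 at 0.77 times Tnni3. For Tnnt2 the gap comes from its merged exons, which add up to 7752 bases over 15 annotated transcripts, whereas its longest coding transcript has 1200 bases. Likewise Myh6 was 2.05-fold above Myl2 with merged exons and 0.84 times Myl2 with the longest coding transcripts. Within a gene these lengths cancel, so comparisons between libraries are not touched.

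Over the 26 members at 1 CPM or more the median coefficient of variation was 5.55%, from 1.40% for Tnnc1 to 19.1% for Acta1. Over all 12360 genes at that level it was 9.60%. Abundant genes vary less by counting alone: over the 90 genes above 1000 CPM the median was 4.76%, and over the 9 members among them 3.41%. Actc1 and Tnnc1 lay at the steady end, while Myh6, at 9.55%, was the most variable of those 9. At 100 CPM or more, 13 of 17 members (76.5%) had a coefficient of variation under 10%, against 83.8% of all genes at that level. In 21 of the 26 members at least 1 pair of libraries differed by more than counting error. Counting limits narrow as counts rise, and the share over all tested genes is not given. The count is therefore no trait of the members.

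**Figure D4:**
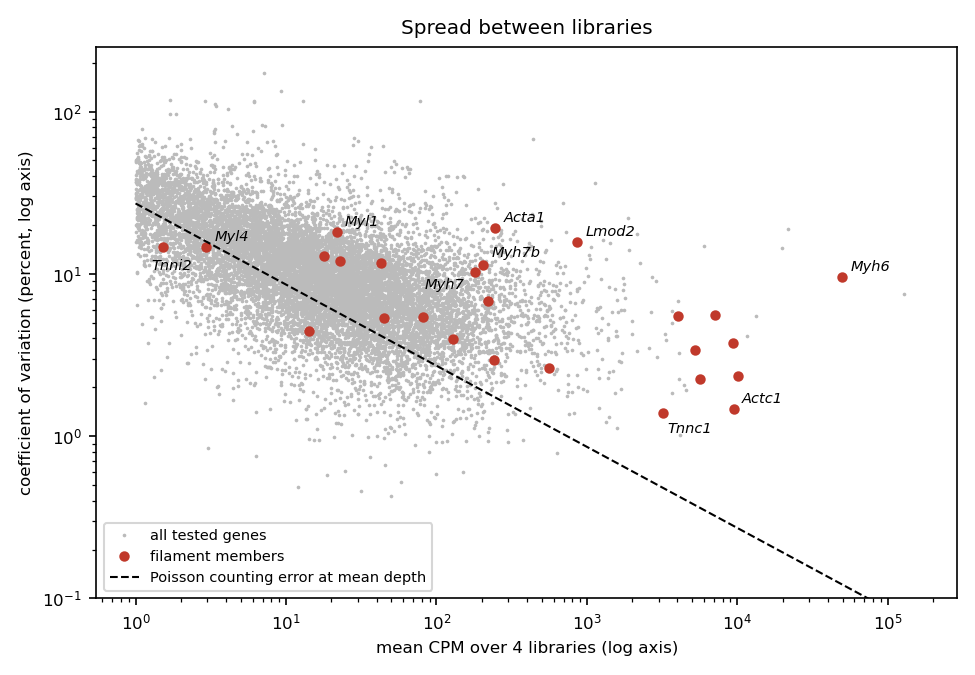
Coefficient of variation over the 4 libraries against mean CPM, both on log axes, for 12360 genes (grey) and 26 filament members (red); the dashed line is the counting error expected at the mean depth. Tnnc1 (1.40%) and Actc1 (1.47%) are low for abundant genes, and Acta1 (19.1%), Myl1 (18.2%) and Lmod2 (15.7%) are the highest of the members.

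Each gene was tested for a spread above that of genes of like abundance with edgeR's quasi-likelihood fit. Of the 26 members tested, 0 had an adjusted p under 0.05, where 0.445% of all 12360 genes did. At an unadjusted p under 0.05 there were 2 of the 26, where 6.0% of all genes passed that threshold. These were Acta1 (edgeR adjusted p = 0.216) and Lmod2 (edgeR adjusted p = 0.469). By limma 0 members were called, where 0.405% of all genes were, and 4 had an unadjusted p under 0.05, where 6.08% of all genes did. DESeq2 marked 0 members as dispersion outliers, where 1.04% of all genes were. Without library 2 the edgeR adjusted p of Acta1 was 0.981 and that of Lmod2 0.931. In both genes library 2 was the low one, with a level of 178 CPM for Acta1 and 688 CPM for Lmod2. With no filter on low counts, 17447 genes were tested and 1.48% called, Acta1 (edgeR adjusted p = 0.00622) among them. The other settings of the edgeR fit also called 0 members. They called 0.421% of all genes with the size factors of DESeq2, 0.0809% with a prior that was not robust, 0.478% without Rn45s and 0.0891% in libraries 1 and 4 alone. Leaving out library 1, 2, 3 or 4 gave 0.356, 0.559, 0.315 and 0.404%.

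The members did not share a single order of libraries. The lowest value fell in library 3 for 10 of the 26 tested members, where 33.4% of all tested genes were lowest, and in library 2 for 8 of them, where 30.7% were. Libraries 4 and 1 were lowest for 6 and 2 members, against 16.1% and 19.8% of all tested genes. The highest value fell in libraries 1 to 4 for 7, 6, 9 and 4 members, against 21.6, 28.5, 22.9 and 27.0% of all tested genes. Libraries 1 and 4 both stood above libraries 2 and 3, the split that Xist follows, for 9 of the 26, against 23.7% of all tested genes. These were Myl1, Myl3, Mylk4, Tnni2, Tnnc1, Actc1, Tpm2, Mybpc2 and Lmod2. The reverse held for 5, Myh6, Myh7b, Mylk3, Tmod1 and Tmod4, against 15.6% of all tested genes. No test was made of this split.

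Library 3 carried the high sum of the 40 genes, and the excess lay in Myh6: without that gene the sums were 57698, 55755, 57148 and 57343 CPM. The thin filament members alone summed to 39506, 38529, 38751 and 39295 CPM, and the thick filament members to 64959, 64915, 74574 and 63935 CPM. Ttn, the giant spring of the sarcomere and one of the cardiomyocyte markers, was also highest in library 3, at 18616, 17208, 23890 and 19878 CPM. Protein-coding genes over 5000 bases had a median log2 deviation of 0.01 in library 3, and those under 1500 bases of -0.03, while Myh6 deviated by 0.20 and Myh7b by 0.23. Myh7, whose longest transcript has 6230 bases against 6113 in Myh6, deviated by 0.11 in library 3 and by -0.23 in library 2. The part of transcript length and of cardiomyocyte RNA in the library 3 values was not tested.

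**Figure D5:**
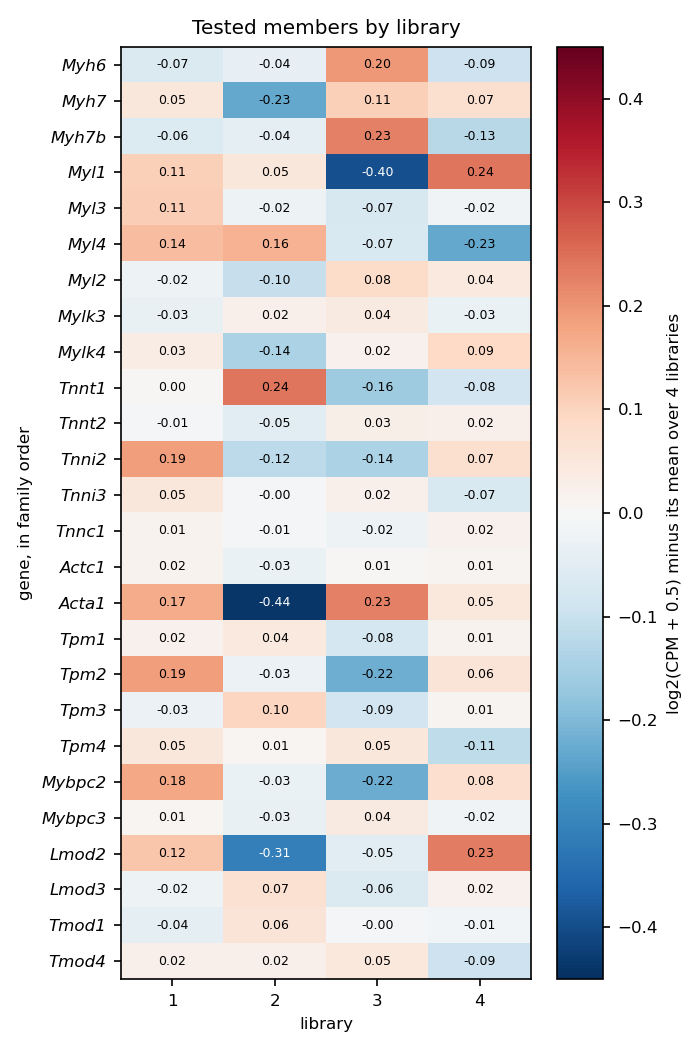
Deviation of each of the 26 tested members from its own mean over the 4 libraries, as log2(CPM + 0.5), with genes in rows in family order and libraries in columns. Myh6 (0.20) and Myh7b (0.23) are high in library 3, where Myl1 is low (-0.40), and Acta1 (-0.44), Lmod2 (-0.31) and Myh7 (-0.23) are low in library 2.

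Other genes of the filament system were read from lists, and none of those tested was called more variable by edgeR, where 0.445% of all 12360 genes were. At so low a share, 0 called genes in lists of this size are no trait of these genes. Of 23 genes of filament assembly and turnover, 23 reached 1 CPM and 0 of the 23 tested were called by edgeR. The most abundant were Nrap, a scaffold of forming myofibrils, with 1433 ± 223 CPM, the formin Fhod3 with 618 ± 28.4 CPM and the actin-binding Xirp2 with 574 ± 92.5 CPM (SD, n = 4). Nrap, at 1586, 1127, 1410 and 1609 CPM, and Xirp2, at 589, 442, 607 and 658 CPM, were lowest in library 2. Of the 23 genes, 8 were lowest in that library, where 30.7% of all tested genes were, and 4, 6 and 5 were lowest in libraries 1, 3 and 4. Of 24 regulators of filament genes, 22 reached 1 CPM and 0 of 22 were called, with Tead1 (243 ± 18.7 CPM), Mef2d (192 ± 4.94 CPM) and Srf (171 ± 5.88 CPM) on top. The thyroid hormone receptors, which favour Myh6 over Myh7, had 108 ± 5.50 CPM for Thra and 24.9 ± 1.22 CPM for Thrb, and Dio3, the enzyme that inactivates the hormone, 0, 1, 0 and 2 counts.

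Relatives of the filament genes in smooth muscle and non-muscle cells were fewer in reads than the cardiac forms. Of 19 such genes 17 reached 1 CPM, with a sum of 3144, 2940, 2663 and 3102 CPM. Of the 17 tested, 0 were called by edgeR, where 0.445% of all tested genes were. Beta actin, Actb, led with 719 ± 80.5 CPM, before the non-muscle myosin Myh9 (478 ± 31.8 CPM) and the light chain Myl12a (398 ± 57.3 CPM). Of the markers of skeletal muscle, 3 of 12 reached 1 CPM, namely Cacna1s (13.4 ± 1.84 CPM), Casq1 (11.2 ± 1.93 CPM) and Atp2a1 (1.35 ± 0.472 CPM), and their sum was 24.9, 31.3, 30.6 and 24.9 CPM. The part of skeletal muscle cells in the levels of Myl1, Mybpc2, Tnnt1 and Tmod4 was not tested.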

How the data were processed

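Raw counts for each gene symbol were deposited by the authors in 1 file per library, ending in 5 entries that name no gene. Those entries held 9.16 ± 0.145% of the listed reads (SD, n = 4) and were left out. Per the submitters' processing notes, the tools were HTSeq, edgeR, DESeq, TopHat, TopHat2 2.0.10 and Bowtie2, and the build was mm10, with no role given. Neither the annotation nor how overlaps were counted is given in the sources used here. Per the labels' protocols the libraries were single-end and not strand-specific.

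CPM were counts scaled to 1000000 gene counts. Spread was tested over genes averaging 1 CPM or more with edgeR 4.0.16 in R 4.3.3: an intercept, TMM factors, a dispersion trend and robust moderation, comparing the ratio of a gene's own quasi-dispersion to the trend with an F distribution on 3 and 7.43 degrees of freedom, upper tail, with Benjamini-Hochberg adjustment. DESeq2 1.42.0 and limma 3.58.1 served as alternatives. Log2 ratios had 0.5 added to counts. Lengths, positions and shared windows are from GENCODE M21 (GRCm38, the assembly that mm10 denotes), which matched 40 of 40 members by symbol. Poisson and Clopper-Pearson limits of 95% cover only the error of counting, as the reads carry no molecular identifiers and are not independent molecules.

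The members, lists and pairs were chosen with earlier results of these data known. All 40 members are named, with values by library for those at 1 CPM or more; of other lists, the leading 3 genes and those that bear on a result. Adgre1 was read under its older symbol Emr1, and the listed Mhrt matched no symbol and was not analysed here.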

Additional observations from a re-analysis of the deposited data

Results flagged for a closer look

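Among 86 values examined, 4 were flagged because 1 library lay far from the other 3 by Dixon's criterion. Chance alone gives about 1 in 20, and the number flagged was no more than that. The sum of the 40 genes was 114121 CPM in library 3, against 104009 to 105233 CPM elsewhere, and the heavy chain sum was 57405 CPM in library 3, against 47042 to 48804 CPM. Both rest on Myh6. The sum of the sarcomeric actins was 9435 CPM in library 2, against 9779.8 to 9831 CPM. The log2 ratio of Mybpc3 to Mybpc1 per kilobase was 14.71 in library 3, where Mybpc1 had 2 counts, and 1 count in each other library.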

How the results depend on the processing

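The number of members at 1 CPM or more was 26 or 27 under all alternatives, and the summed level moved past its spread only without Rn45s, the ribosomal RNA precursor, in the total (122491 CPM). Leaving out each library in turn gave sums of 104484 to 107854 CPM. The count of members called more variable was 0 under each alternative but 1, no filter on low counts, where it was 1, and 0 without any 1 library. The median coefficient of variation was 4.75 to 6.62% without 1 library and 3.17% in libraries 1 and 4 alone, whose sex-linked transcripts match their labels. The leading member of each family kept its lead throughout. Its share moved by more than the spread with raw counts in place of counts per kilobase for Myh6 (99.23%), Myl2 (99.986%), Mylk3 (71.7%), Tnnt2 (99.8%), Tnni3 (99.97%), Tpm1 (98.4%), Mybpc3 (99.24%) and Tmod1 (94.4%). It moved with the longest annotated transcript for Myh6 (99.24%), Mylk3 (79.3%), Tnni3 (99.97%), Tpm1 (98.0%) and Tmod1 (87.1%), and with the longest coding transcript, a setting chosen after seeing the data, for Myh6 (99.24%), Myl2 (99.986%), Mylk3 (79.3%), Tnnt2 (99.8%), Tpm1 (98.7%) and Tmod1 (87.1%). Without 1 library the shares were 99.2933 to 99.3134% for Myh6, 99.4 to 99.5% for Myl3, 99.96 to 99.97% for Myl2, 81.4 to 82.4% for Mylk3, 99.3 to 99.4% for Tnnt2, 99.9553 to 99.9593% for Tnni3, 99.99 to 99.996% for Tnnc1, 97.1 to 97.5% for Actc1, 97.1606 to 97.2185% for Tpm1, 99.066 to 99.1445% for Mybpc3, 87.5 to 89.0% for Lmod2 and 87.9 to 88.2% for Tmod1.

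Of the pair ratios, 14 of the 315 alternative values reversed. As log2 means, Tpm3 over Tpm4 came to 0.86 with raw counts, 0.70 with the longest annotated and 0.79 with the longest coding transcript. Mybphl over Mybph, a few counts each, came to 0.045 with 1 added to counts and to between -1.32 and 0.54 without 1 library, positive without library 1 or library 4. Myh6 over Myl2 came to -0.25 with the longest coding transcript. Tnnt2 over Tnni3 came to 0.95 with raw counts and 0.56 with the longest coding transcript. Tnnc1 over Tnni3 came to -0.71 with raw counts and -0.37 with either transcript length. Actc1 over Tnnt2 came to -0.10 with raw counts and -0.40 with the longest coding transcript. These changes come from the lengths used, except those of Mybphl. No paired analysis was possible because the libraries form 1 group.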
